A study of Homo sapiens with 18 samples.

Results

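The comparison described here set MYCN+/SNRPD3- cells, in which MYCN was expressed and SNRPD3 was depleted, against wildtype MYCN-/SNRPD3+ cells, in which MYCN was repressed and SNRPD3 was left intact. It used 9 of the 18 RNA sequencing libraries of the series, 6 MYCN+/SNRPD3- and 3 wildtype, chosen by the treatment and siRNA in their labels. The cells were SHEP.tet21n, a single human neuroblastoma line that carries a MYCN cDNA under a promoter that doxycycline (Dox) shuts off. MYCN+/SNRPD3- cells received DMSO and SNRPD3 siRNA #1 (3 libraries) or siRNA #2 (3 libraries), which were pooled. Wildtype cells received 2 µg/mL Dox and a control siRNA. Wildtype and MYCN+/SNRPD3- therefore differed in the Dox, in the MYCN transgene and in the siRNA, and the part of each cannot be told apart in this comparison alone. The other 9 libraries were MYCN+/SNRPD3+ (DMSO and control siRNA) and MYCN-/SNRPD3- (Dox and siRNA #1 or #2), with 3 in each group. Their values are given beside some of the results.

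SNRPD3 (SmD3) is one of the Sm proteins that close into a ring around the small nuclear RNAs of the spliceosome, and the ring is needed for these particles to mature and to enter the nucleus. The spliceosome recognises an exon by the 3′ splice site before it and the 5′ splice site after it, and an exon whose sites are not both used is skipped with its neighbouring introns. Such an exon is called a cassette exon. MYCN is the transcription factor amplified in many high-risk neuroblastomas. The study used the comparison to ask how MYCN affects splicing in cells depleted of SNRPD3.

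The authors measured each intron by its PSI, the share of the spanning reads of a cluster of introns with shared splice sites that removed this intron in a library. PSI is a proportion within a gene and carries no expression level, so neither the depletion of SNRPD3, the repression of MYCN nor the identity of the line could be checked in these values, and their own introns were not analysed here. Reads per intron were not given, so the depth behind a PSI is unknown and the spread between libraries is the only error used. Of the 233650 introns, 152627 had a mean PSI between 1% and 99% over the 9 libraries and were tested. Exactly repeated values, in which at least 2 of the 9 libraries shared a PSI, occurred in 16122 of these introns (10.6%), and their share per library was 3.20% to 3.92% in wildtype and 4.10% to 5.49% in MYCN+/SNRPD3-. The part of this difference in the results was not tested, but 21 of the 974 introns called below (2.16%) and 3 of the 1061 cassette exons called had a repeated value.

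Across all cassette exons, inclusion was lower in MYCN+/SNRPD3- than in wildtype. Inclusion was computed as the mean PSI of the 2 introns that flank an exon divided by the sum of this mean and the PSI of the intron that skips it. Averaged over the 7907 exon sets whose exon length is a multiple of 3 bases, which keep the reading frame when skipped, inclusion was 62.0% to 62.2% in the 3 wildtype libraries. It was 59.8%, 60.0% and 57.4% with siRNA #1 and 60.0%, 60.5% and 58.6% with siRNA #2. All 6 libraries were below all 3 wildtype libraries, and the means were 59.4% ± 1.18 (SD, n = 6) and 62.1% ± 0.107 (SD, n = 3). An exact two-sided permutation test gave p = 0.0119, the smallest that 6 against 3 libraries can reach, and 0.0357 after adjustment over 6 measures. Over the 10653 sets of other lengths the means were 59.4% ± 1.19 (SD, n = 6) and 61.8% ± 0.343 (SD, n = 3), with exact permutation p = 0.0238 and 0.0476 adjusted. Replicate 3 of both siRNAs stood apart from the other MYCN+/SNRPD3- libraries with the lowest inclusion. Without these 2 libraries the differences were -2.01 and -1.69 percentage points, each with exact permutation p = 0.0286. When any 1 wildtype library was left out, the exact permutation p was 0.0714 for both measures, and without replicate 1 of siRNA #1 it was 0.0536 for the other lengths.

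The other groups lay between these values. For exons of a multiple of 3 bases, mean inclusion was 61.6% ± 0.491 (SD, n = 3) in MYCN+/SNRPD3+, and 60.8% ± 0.416 and 61.0% ± 0.422 (SD, n = 3 each) in MYCN-/SNRPD3- with siRNA #1 and #2. Introns that join 2 annotated splice sites in a way no annotated transcript does are called new joins here. Their share was taken of the summed PSI of all tested introns, which does not weigh clusters by their reads. It was 1.14% to 1.32% in the 6 MYCN+/SNRPD3- libraries and 0.974% to 0.989% in wildtype. The means were 1.20% ± 0.0821 (SD, n = 6) and 0.983% ± 0.00861 (SD, n = 3), with exact permutation p = 0.0119 and 0.0357 adjusted. In MYCN+/SNRPD3+ the share was 1.04%, and in MYCN-/SNRPD3- it was 1.03% and 1.02%. Introns with an unannotated 3′ splice site took 2.52% ± 0.0600 (SD, n = 6) against 2.42% ± 0.0191 (SD, n = 3), a difference that did not pass after adjustment (exact permutation p = 0.0476, adjusted 0.0714). Neither the share of introns with an unannotated 5′ splice site (2.36% against 2.31%, exact permutation p = 0.333) nor the mean entropy of the clusters (0.969 against 0.969, exact permutation p = 0.988) passed.

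**Figure D1:**
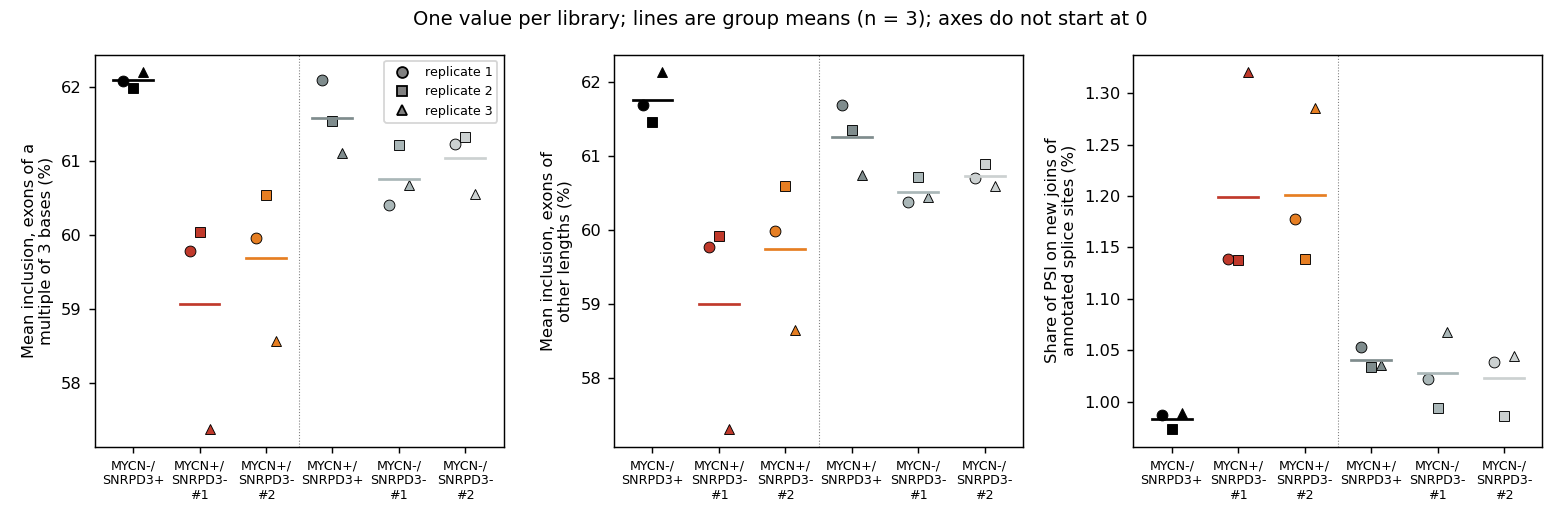
Mean inclusion of cassette exons of a multiple of 3 bases (percent) and the share of PSI on new joins (percent) in each of the 18 libraries, by group, with a marker for each replicate number and a line at each group mean. All 6 MYCN+/SNRPD3- libraries lie below the wildtype libraries in inclusion, and replicate 3 of each siRNA is lowest, at 57.4% and 58.6%.

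Single exons were skipped more far more often than they were included more. Of 18560 cassette exon sets tested (16618 exons in 7390 genes), 1061 were called (5.72%) at an adjusted p under 0.05 in limma, 993 of them with lower inclusion in MYCN+/SNRPD3- (5.35%) and 68 with higher inclusion (0.366%). An exon was called in 816 of the 7390 genes (11%) and skipped more in 758 (10.3%). Inclusion did not overlap between the 6 and the 3 libraries in 977 of the called sets, against 13.6% of all sets tested. Among all tested sets the median difference was -1.36 percentage points or -0.33 on the log2 odds scale, with 70.6% of sets lower, so each log2 odds given below is read relative to that shift. Among called sets the median difference was -8.13 percentage points.

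These counts leaned on the fit over all 18 libraries and on the shift of each library as a whole. With each library centred on its median, 308 sets were called, 135 skipped more and 173 included more, and 196 of them were among the 1061. No called set changed direction under centring. A fit of only the 9 libraries called 32 sets, 22 skipped more and 10 included more, and 30 of these were among the 1061. Without replicate 3 of both siRNAs 238 were called, 216 skipped more and 22 included more, and 224 of these were among the 1061. Leaving out any single wildtype library left 212 to 286 sets. Leaving out only replicate 3 of siRNA #1 or of siRNA #2 left 587 and 510. With siRNA #1 alone 703 sets were called and with siRNA #2 alone 178.

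**Figure D2:**
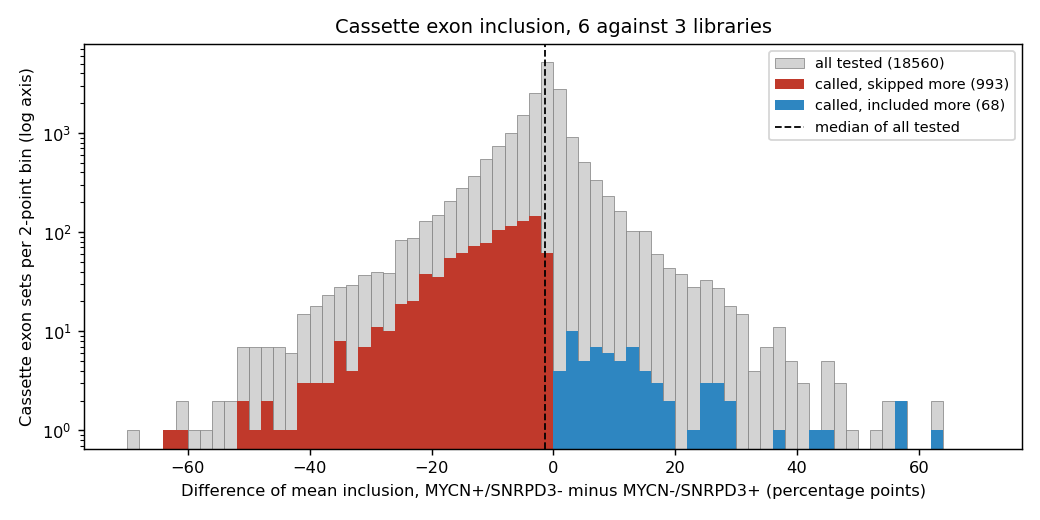
Number of cassette exon sets (log axis) by the difference of mean inclusion, MYCN+/SNRPD3- minus wildtype, in percentage points, for all sets tested, for those called as skipped more and for those called as included more. The 993 sets skipped more lie left of 0 and the 68 included more lie right of it, around a median of all sets at -1.36 points.

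Of the 8 exons with the largest differences, all but the ZBTB7C exon are printed, with 3 exons of the cell adhesion, cell division and checkpoint genes AFDN, KIF23 and MDM4, to show what was skipped or included. Each sequence is from hg38, 5′ to 3′ on the strand of the gene, with the exon in capitals, the last 20 bases of the intron before it and the leading 6 bases of the intron after it in lower case.
MED16: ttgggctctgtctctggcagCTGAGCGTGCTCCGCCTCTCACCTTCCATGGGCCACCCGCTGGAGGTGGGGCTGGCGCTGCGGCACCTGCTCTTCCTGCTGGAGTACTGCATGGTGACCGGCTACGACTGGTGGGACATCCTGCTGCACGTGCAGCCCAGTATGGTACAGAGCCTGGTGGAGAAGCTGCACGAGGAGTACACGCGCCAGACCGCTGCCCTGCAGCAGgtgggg
ANKRD10: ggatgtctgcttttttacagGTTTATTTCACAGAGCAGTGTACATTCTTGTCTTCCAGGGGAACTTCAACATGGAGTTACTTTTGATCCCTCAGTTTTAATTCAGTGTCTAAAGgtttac
ATAT1: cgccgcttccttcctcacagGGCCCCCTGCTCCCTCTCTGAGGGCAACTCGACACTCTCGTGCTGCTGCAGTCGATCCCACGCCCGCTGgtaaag
SP110: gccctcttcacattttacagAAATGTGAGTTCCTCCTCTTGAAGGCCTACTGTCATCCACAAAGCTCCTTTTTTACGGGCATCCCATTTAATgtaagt
GIPR: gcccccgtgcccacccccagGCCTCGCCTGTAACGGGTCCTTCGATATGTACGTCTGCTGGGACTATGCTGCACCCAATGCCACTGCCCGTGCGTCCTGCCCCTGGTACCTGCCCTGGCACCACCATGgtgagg
DLEU1: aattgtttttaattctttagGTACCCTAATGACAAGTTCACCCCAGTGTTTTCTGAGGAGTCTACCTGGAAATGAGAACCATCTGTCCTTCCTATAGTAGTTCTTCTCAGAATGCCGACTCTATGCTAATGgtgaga
LINC01094: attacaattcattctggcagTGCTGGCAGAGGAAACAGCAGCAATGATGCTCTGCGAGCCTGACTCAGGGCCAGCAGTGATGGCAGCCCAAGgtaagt
AFDN: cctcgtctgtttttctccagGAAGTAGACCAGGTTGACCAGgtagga
KIF23: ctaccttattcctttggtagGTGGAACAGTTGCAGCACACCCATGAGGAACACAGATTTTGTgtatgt
MDM4: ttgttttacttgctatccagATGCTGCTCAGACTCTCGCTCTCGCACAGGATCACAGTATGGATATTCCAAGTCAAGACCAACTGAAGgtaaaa
The printed exons lie between the usual ag and gt of the introns. Over the last 3 exon and first 6 intron bases, the 5′ splice site shared 4 of 9 positions with the consensus CAGGTAAGT in ANKRD10, 5 in GIPR, DLEU1 and KIF23, 6 in MED16, ATAT1 and MDM4, and 7 in SP110 and AFDN. In LINC01094, the only printed exon that was included more, it shared 8.

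The 5 coding exons among the 8 with the largest differences were all skipped more. An exon is called coding here when an annotated coding segment has exactly its start and end. An exon that is coding only in part, as at a start or stop codon, therefore counts as noncoding. The 8 were chosen among called exons whose groups do not overlap, so the lack of overlap is part of the choice. MED16 encodes a subunit of Mediator, which links transcription factors to RNA polymerase II. Its 207-base coding exon (chr19:876974-877180, minus strand) was included at 99.5%, 87.6% and 99.1% in the wildtype libraries. Inclusion was 16.2%, 68.0% and 50.6% with siRNA #1 and 68.8%, 53.9% and 33.7% with siRNA #2 (-5.00 ± 0.83 log2 odds, SE, adjusted p = 0.00838). The exon was also at 41.3% in MYCN+/SNRPD3+ and at 61.7% and 54.1% in MYCN-/SNRPD3-, so wildtype was the group that stood apart. The 94-base coding exon of ANKRD10, an ankyrin repeat protein (chr13:110894109-110894202, minus strand), fell from 73.8%, 77.3% and 81.5% to 42.8%, 44.1% and 14.6% with siRNA #1 and 30.9%, 45.1% and 19.9% with siRNA #2 (-2.85 ± 0.46 log2 odds, SE, adjusted p = 0.0068). Skipping of this exon shifts the reading frame, since 94 is not a multiple of 3. Both exons were still called without replicate 3 (adjusted p = 0.0348 for MED16 and 0.0112 for ANKRD10) and with centred libraries (0.0206 and 0.0122). Neither passed in the fit of the 9 libraries alone (0.0836 and 0.0827).

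ATAT1 encodes the acetyltransferase of α-tubulin. Its 69-base coding exon (chr6:30640535-30640603, plus strand) was included at 64.4%, 54.8% and 98.9% in wildtype, at 23.3%, 14.6% and 11.5% with siRNA #1 and at 39.2%, 33.4% and 10.2% with siRNA #2 (-4.15 ± 0.93 log2 odds, SE, adjusted p = 0.0244). The wildtype libraries differed widely among themselves. In SP110, a nuclear body protein of leukocytes, a 72-base coding exon (chr2:230171696-230171767, minus strand) was at 70.7%, 99.2% and 82.8% in wildtype, at 24.8%, 24.7% and 25.6% with siRNA #1 and at 48.0%, 62.5% and 39.5% with siRNA #2 (-3.86 ± 0.79 log2 odds, SE, adjusted p = 0.0181). The fall was larger with siRNA #1, whose libraries were close together. In GIPR, the receptor of an incretin hormone, a 108-base coding exon (chr19:45671285-45671392, plus strand) was at 98.6%, 98.3% and 99.4% in wildtype. It was at 67.8%, 57.8% and 19.5% with siRNA #1 and at 49.2%, 1.07% and 35.1% with siRNA #2 (-6.68 ± 1.48 log2 odds, SE, adjusted p = 0.0231). The wildtype libraries were close together, while the MYCN+/SNRPD3- libraries were widely spread, and 1 of them held exactly the same value, 67.8%, as a library outside the comparison. Without replicate 3, the adjusted p of ATAT1, SP110 and GIPR was 0.0931, 0.0688 and 0.07, and of the 3 only SP110 was called with centred libraries (adjusted p = 0.0446).

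The other 3 exons are noncoding by the definition above. ZBTB7C encodes a zinc finger protein, and its 132-base exon (chr18:48185324-48185455, minus strand) was at 30.5%, 93.2% and 49.1% in wildtype. It was at 0.299%, 0.502% and 0.429% with siRNA #1 and at 0.542%, 29.8% and 17.9% with siRNA #2 (-5.43 ± 1.03 log2 odds, SE, adjusted p = 0.0133). Inclusion was thus under 1% in 4 of the 6 libraries, though the PSI were smoothed and their depth is unknown. The highest of the other libraries, at 29.8%, was just under the lowest wildtype library. DLEU1 is a long noncoding RNA gene, and its 111-base exon (chr13:50492651-50492761, plus strand) was at 98.2%, 96.8% and 99.3% in wildtype, at 49.8%, 0.591% and 50.02% with siRNA #1 and at 79.2%, 1.07% and 34.3% with siRNA #2 (-6.96 ± 1.72 log2 odds, SE, adjusted p = 0.0327). Outside this comparison, 3 libraries held the same DLEU1 inclusion of 55.0%. LINC01094, also a long noncoding RNA gene, was the exception in direction. Its 72-base exon (chr4:78673343-78673414, plus strand) was at 0.260%, 12.5% and 0.526% in wildtype, at 97.9%, 98.8% and 17.8% with siRNA #1 and at 55.6%, 48.3% and 47.6% with siRNA #2 (6.44 ± 1.67 log2 odds, SE, adjusted p = 0.0397). Without replicate 3 the adjusted p was 0.0429 for ZBTB7C, 0.0733 for DLEU1 and 0.0313 for LINC01094, and with centred libraries it was 0.0323, 0.0766 and 0.0543.

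Exons of cytoskeleton, adhesion and vesicle traffic genes were skipped more in MYCN+/SNRPD3-. AFDN encodes afadin, which ties nectins to actin at adherens junctions. Its 21-base exon (chr6:167913403-167913423, plus strand) was included at 51.6%, 61.5% and 60.7% in wildtype, at 30.7%, 25.8% and 20.4% with siRNA #1 and at 35.3%, 28.6% and 27.6% with siRNA #2 (-1.80 ± 0.21 log2 odds, SE, adjusted p = 0.00313). The groups were well apart, and MYCN+/SNRPD3+ (37.5%) and MYCN-/SNRPD3- with siRNA #1 (46.7%) and siRNA #2 (55.7%) fell between them. The exon of 24 bases in PICALM, a clathrin assembly protein, was chosen after its values were seen. Its inclusion was 84.6% ± 2.33 (SD, n = 3) in the wildtype libraries and fell to 64.2% ± 4.75 (SD, n = 6, adjusted p = 0.00313), against 72.2% in MYCN+/SNRPD3+ and 78.9% and 78.8% in MYCN-/SNRPD3-. A 54-base exon of EPB41L2, which links the membrane to the actin and spectrin cytoskeleton, fell from 13% ± 2.73 (SD, n = 3) to 3.92% ± 0.543 (SD, n = 6, adjusted p = 0.00333), and an 87-base exon of ABI1, a component of the WAVE complex that drives actin branching, fell from 80.7% ± 0.603 (SD, n = 3) to 65.7% ± 5.60 (SD, n = 6, adjusted p = 0.00545). Both were also chosen after their values were seen. AFDN, PICALM, EPB41L2 and ABI1 were called as skipped more without replicate 3 and with centred libraries as well, but none of the 4 passed in the fit of only the 9 libraries (adjusted p = 0.0563, 0.0505, 0.0505 and 0.0794).

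In the list of cytoskeleton and adhesion genes, 18 of the 94 genes with a tested exon had an exon skipped more and 2 had an exon included more, against 10.3% of all genes with an exon skipped more. The list of vesicle traffic and membrane transport genes had 16 skipped more and 1 included more of 90 genes. By introns, 19 of 131 cytoskeleton genes and 16 of 129 vesicle genes had a call, 14.5% and 12.4%, against 5.19% of all genes. Genes of these lists had a median of 13 and 12 tested introns, so they had more chances of a call than short genes. Without replicate 3 the exon counts were 7 skipped more and 1 included more in the cytoskeleton list and 5 and 0 in the vesicle list. With centred libraries they were 5 and 6, and 3 and 4, so the direction of these counts depended on the scaling although no called exon turned. LIMCH1, which activates non-muscle myosin, had a 36-base exon at 99.9% in each wildtype library and at 81.4% to 96.4% (median 91.3%) in MYCN+/SNRPD3- (-3.24 ± 0.56 log2 odds, SE, adjusted p = 0.0102). This exon was also chosen after its values were seen. LIMCH1 was the 1 gene of the cytoskeleton list called as skipped more in the fit of only the 9 libraries (adjusted p = 0.0225).

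In the cell cycle list 19 of 113 genes had an exon skipped more, against 10.3% of all genes, and 0 had an exon included more. By introns, 11 of its 189 genes had a call (5.82%), near the 5.19% of all genes. KIF23 encodes a kinesin of the central spindle that is needed for cytokinesis. Its 42-base exon (chr15:69425282-69425323, plus strand) was at 43.9%, 44.2% and 52.7% in wildtype, at 23.2%, 25.7% and 14.3% with siRNA #1 and at 26.5%, 21.7% and 20.4% with siRNA #2 (-1.63 ± 0.22 log2 odds, SE, adjusted p = 0.00394). All 6 libraries were below the lowest wildtype library, and the exon was at 30.2% in MYCN+/SNRPD3+ and at 39.3% and 44.3% in MYCN-/SNRPD3-. CDC14B, a phosphatase that acts on targets of cyclin-dependent kinases, had a 117-base exon that fell from 70.1% ± 6.84 (SD, n = 3) to 45.9% ± 7.0 (SD, n = 6, adjusted p = 0.0161). Among the 19, chosen after their values were seen, a 102-base coding exon of the kinase CDK2 fell from 86.3% ± 0.789 (SD, n = 3) to 74.2% ± 3.71 (SD, n = 6, adjusted p = 0.0164) and a 45-base exon of FOXM1, a transcription factor of mitotic genes, fell from 96.2% ± 0.145 (SD, n = 3) to 89.1% ± 4.36 (SD, n = 6, adjusted p = 0.0114). Without replicate 3 the count for the list was 4 (FOXM1, KIF23, NUF2 and TACC2), with centred libraries it was 2 (KIF23 and TACC2), and with only the 9 libraries it was 1 (TACC2).

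DNA repair and checkpoint genes had 15 of 110 genes with an exon skipped more, against 10.3% of all genes, and 2 with an exon included more. By introns, 9 of 137 genes had a call (6.57%), against 5.19% of all genes. Genes of this list had a median of 14 tested introns, so they too had more chances of a call than short genes. In EXO1, a nuclease of mismatch repair and end resection, a 108-base noncoding exon was at 68.0%, 68.2% and 67.9% in wildtype, at 38.5%, 44% and 22.3% with siRNA #1 and at 39.2%, 43.9% and 27.7% with siRNA #2 (-1.91 ± 0.34 log2 odds, SE, adjusted p = 0.0117). The wildtype libraries were nearly equal, and replicate 3 of each siRNA was lowest. MDM4 inhibits p53, and loss of its 68-base exon (chr1:204537430-204537497, plus strand) is known to give the short form MDM4-S. Inclusion was 69.1%, 72.4% and 63.8% in wildtype, 47.8%, 48.7% and 32.8% with siRNA #1 and 56.9%, 51.4% and 43.3% with siRNA #2 (-1.29 ± 0.26 log2 odds, SE, adjusted p = 0.0168). In MYCN+/SNRPD3+ it was 66.2%, near wildtype, and in MYCN-/SNRPD3- it was 53.0% and 56.9%. A 69-base exon of the excision repair nuclease subunit ERCC1, chosen after its values were seen, fell from 90.8% ± 1.95 (SD, n = 3) to 75.8% ± 5.37 (SD, n = 6, adjusted p = 0.0117). EXO1, MDM4 and ERCC1 were the 3 genes of the list called as skipped more without replicate 3. With centred libraries 2 of the list were (ERCC1 and EXO1) and 2 genes had an exon included more, and with only the 9 libraries 0 were.

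Apoptosis genes had an exon skipped more in 5 of 44 genes, a share near the 10.3% of all genes, and 0 had an exon included more. The 147-base coding exon of BAX, which permeabilises mitochondria, fell from 94.3% ± 0.803 (SD, n = 3) to 87.6% ± 1.36 (SD, n = 6, adjusted p = 0.013), and a 96-base exon of the mitochondrial protease HTRA2 fell from 92.8% ± 1.03 (SD, n = 3) to 85.6% ± 2.49 (SD, n = 6, adjusted p = 0.0171). The 70-base exon of BID, which activates BAX, was chosen after its values were seen and fell from 81.2% ± 3.13 (SD, n = 3) to 53.3% ± 9.45 (SD, n = 6, adjusted p = 0.0189). BAX and HTRA2 were called without replicate 3 and BID was not. With centred libraries and with only the 9 libraries 0 genes of this list had a called exon.

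Exons of splicing factor genes were skipped more in 27 genes over the 4 lists of SR, hnRNP and spliceosome proteins and other splicing regulators. Of 309 exons tested in these lists, 37 were called as skipped more, against 966 of 16618 over all genes. Of these 37, 21 were noncoding as defined above (56.8%), against 28.1% of the 966 exons skipped more in all genes. Of the exons tested, 50.5% in the 4 lists and 44.3% in all genes were noncoding. RBM39, an SR-like splicing regulator, had a 73-base noncoding exon that fell from 15.6%, 20.4% and 18.1% to 9.85%, 8.36% and 6.08% with siRNA #1 and 9.96%, 9.68% and 8.49% with siRNA #2 (-1.13 ± 0.20 log2 odds, SE, adjusted p = 0.0117). Every MYCN+/SNRPD3- library was below the lowest wildtype library, and another exon of RBM39 was included more. SON, a protein of nuclear speckles, had an 80-base exon that fell from 9.91% ± 1.24 (SD, n = 3) to 4.46% ± 0.837 (SD, n = 6, adjusted p = 0.0168). LUC7L and LUC7L3, relatives of a yeast component of the U1 particle, had exons that fell from 6.54% to 2.58% and from 6.13% to 3.43%. TIAL1 (8.30% to 4.25%), which binds near weak 5′ splice sites, PRPF39 (27.9% to 12.2%), a partner of the U1 particle, and ZRANB2 (69.97% to 57.8%), a regulator of splice site choice, had exons that fell as well. The SR list had 5 of 23 genes with an exon skipped more, the hnRNP list 5 of 24, the spliceosome list 9 of 43 and the list of other regulators 8 of 60, against 10.3% of all genes. Without replicate 3 these counts were 1, 0, 0 and 3, and with only the 9 libraries all 4 were 0. With centred libraries no gene of the 4 lists had an exon called as skipped more, while 2 spliceosome genes and 3 other regulators had an exon included more.

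SmD3 is loaded onto small nuclear RNA by the SMN complex after methylation by PRMT5. In the list of methyltransferases, methylosome and SMN complex, 3 of 18 genes had an exon skipped more, against 10.3% of all genes. GEMIN8, of the SMN complex, had an exon that fell from 72.9% to 57.5%, and PRMT2 had an exon that fell from 27.0% to 15.2% and another of 176 coding bases, chosen after its values were seen, that fell from 88.6% ± 1.22 (SD, n = 3) to 69.9% ± 6.30 (SD, n = 6, adjusted p = 0.0137). PRMT2 was the gene of this list called without replicate 3, and with centred libraries or only the 9 libraries 0 were. In the list of the MYC and MAX network 0 of 26 genes had a called intron, against 5.19% of all genes, and 0 of 12 had an exon skipped more, against 10.3%. Of its genes, 1 had a called intron without replicate 3 and 2 had one with only the 9 libraries, and 1 had an exon included more with centred libraries.

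RPS24, a ribosomal protein, had a 22-base exon that fell from 42.3%, 45.9% and 47.7% to 24.0%, 25.5% and 18.8% with siRNA #1 and 24.1%, 26.0% and 20.5% with siRNA #2 (-1.43 ± 0.20 log2 odds, SE, adjusted p = 0.00402). In MYCN+/SNRPD3+ it was at 25.5%, close to MYCN+/SNRPD3-, and in MYCN-/SNRPD3- it was at 42.2% and 44.5%, close to wildtype. EIF4E2, a cap-binding protein, had an exon that fell from 92.6% to 82.5%, and EIF3K, a subunit of a translation initiation factor, had a 78-base exon that fell from 96.3% ± 0.788 (SD, n = 3) to 87.7% ± 3.52 (SD, n = 6, adjusted p = 0.0133). EHMT1, a histone lysine methyltransferase, had a 78-base exon that fell from 77.9% ± 2.09 (SD, n = 3) to 60.0% ± 6.86 (SD, n = 6, adjusted p = 0.0181). EXOSC2, of the RNA exosome, had a 90-base exon that fell from 96.9% ± 0.882 (SD, n = 3) to 87.8% ± 4.60 (SD, n = 6, adjusted p = 0.0108). Without replicate 3 of both siRNAs the exons of EIF3K (adjusted p = 0.0517) and EHMT1 were not called, while those of RPS24, EIF4E2 and EXOSC2 were. With centred libraries only that of EHMT1 was not called, and with only the 9 libraries none of them was. Counts of genes with an exon skipped more and included more were 5 and 0 of 34 for ribosome and translation factors, 14 and 0 of 107 for chromatin, 18 and 0 of 100 for ubiquitin and proteasome, 10 and 0 of 74 for the mitochondrial ribosome and respiration, 8 and 0 of 43 for the nuclear pore and export, 12 and 2 of 101 for small GTPases and kinases, 3 and 1 of 28 for nonsense-mediated decay, 3 and 0 of 27 for RNA helicases and 3 and 0 of 32 for DNA replication. Over all genes 10.3% had an exon skipped more, and the last 3 of these lists were near that share. Chromatin genes had a median of 15 tested introns, so they had more chances of a call than short genes. Without replicate 3 these counts were 2 and 0, 3 and 0, 7 and 0, 0 and 0, 1 and 0, 2 and 1, 1 and 0, 0 and 0, and 0 and 0. With centred libraries they were 3 and 2, 2 and 1, 5 and 2, 0 and 2, 0 and 0, 3 and 3, 1 and 1, 0 and 0, and 0 and 0. With only the 9 libraries they were 1 and 0 for small GTPases and kinases, and 0 and 0 for each of the other lists.

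**Figure D3:**
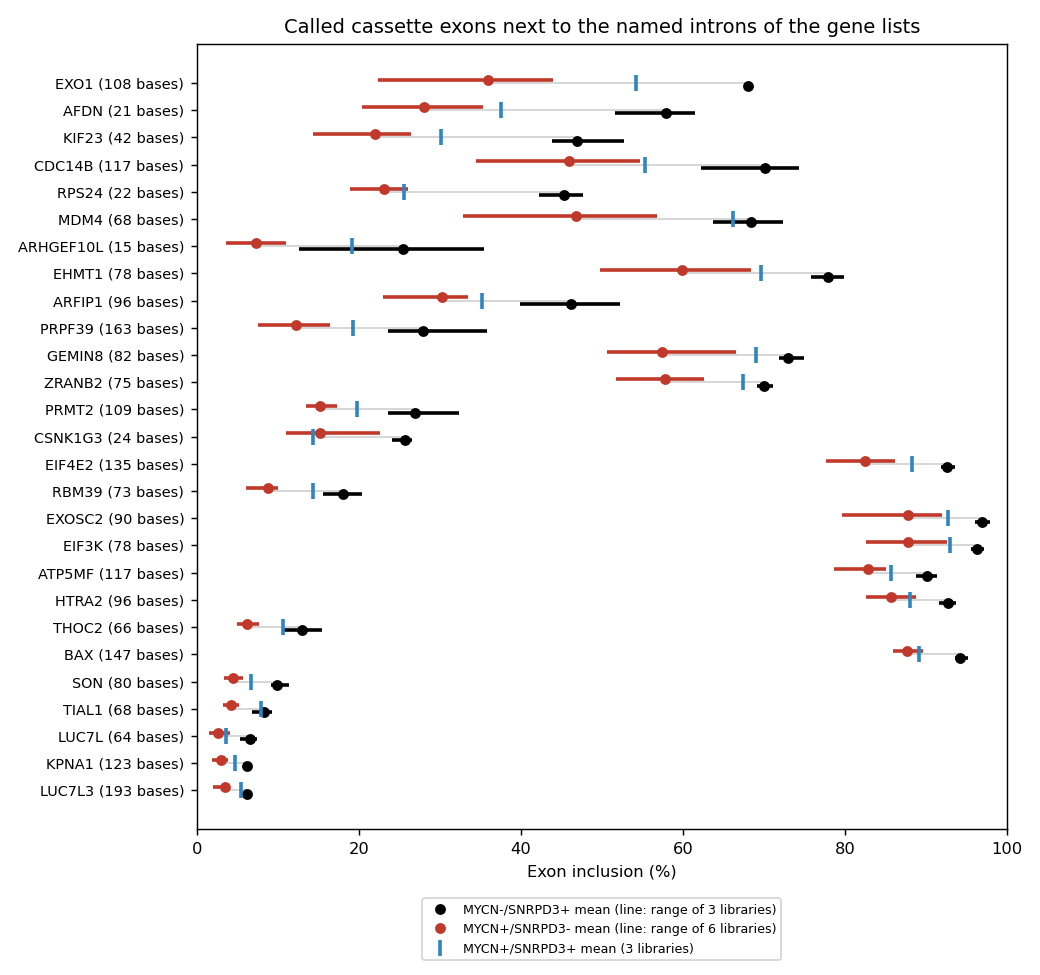
Mean inclusion (percent) of called cassette exons next to the named introns of the gene lists, in wildtype and in MYCN+/SNRPD3-, with lines for the range of the 3 and the 6 libraries. In every exon the MYCN+/SNRPD3- mean lies left of the wildtype mean, from AFDN (57.9% against 28.1%) to LUC7L3 (6.13% against 3.43%).

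**Figure D4:**
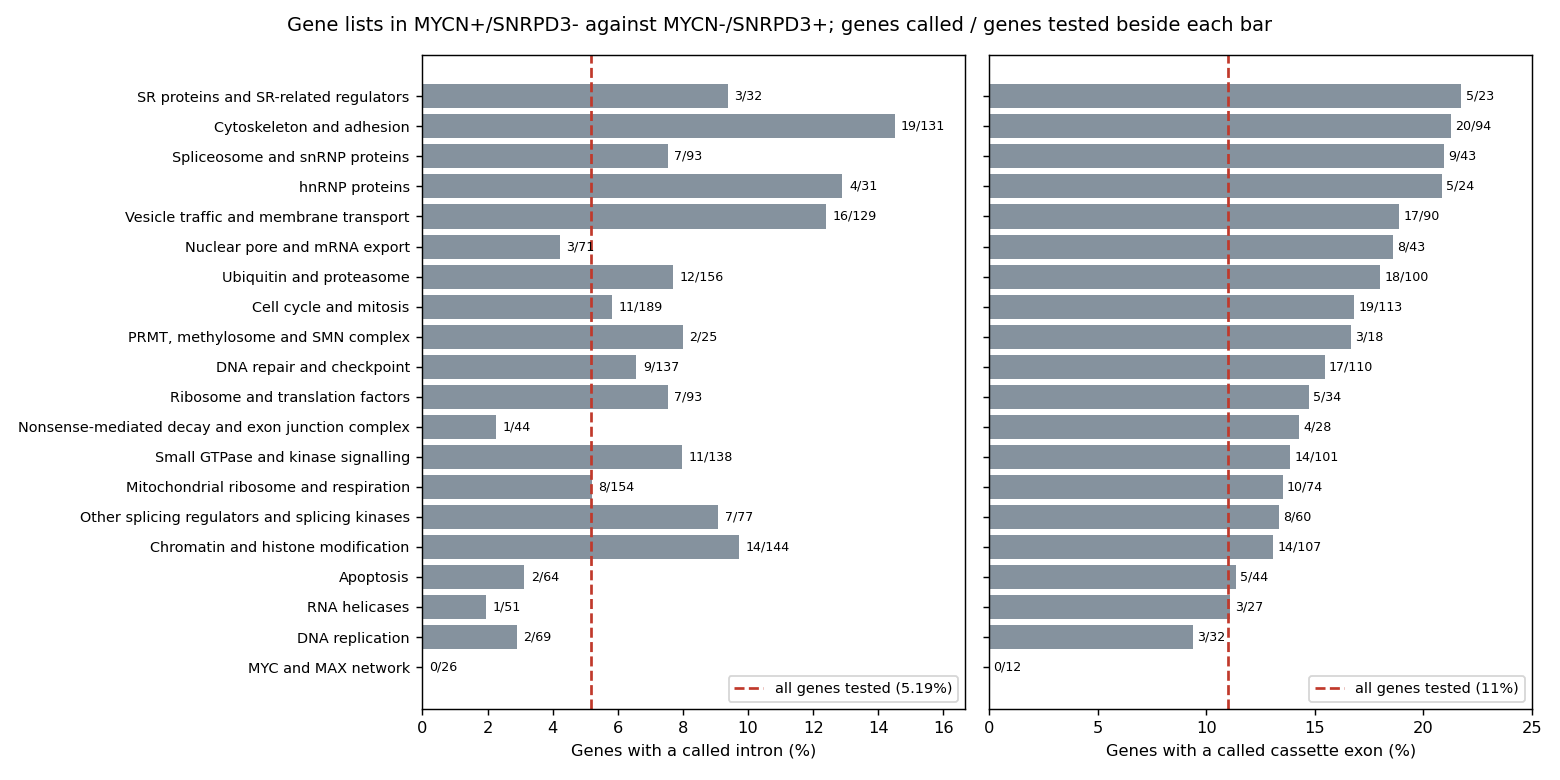
Percent of tested genes of each of the 20 lists with a called intron and with a cassette exon called, with the counts beside the bars and a dashed line at the percent over all genes tested. The cytoskeleton list has the highest bar for introns (19 of 131), and the MYC and MAX list has none.

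At the level of introns, 974 of 152627 were called (0.638%), 612 with higher PSI in MYCN+/SNRPD3- (0.401%) and 362 with lower PSI (0.237%). They lay in 784 of 44384 clusters and in 737 of 14208 genes (5.19%), 564 of which had a single called intron, and 22 called introns had no gene. PSI did not overlap between the groups in 954 of the 974, against 6.61% of all introns tested. The median absolute difference was 5.34 percentage points in called introns and 1.74 in all. The split between higher and lower depended on the fit, since 62.8% of calls were higher in the fit over all libraries and 43.6% of 427 calls were higher in the fit of the 9 libraries, with 181 introns called in both. Without replicate 3 of both siRNAs 374 introns were called (228 higher and 146 lower), 280 of them among the 974. Leaving out any single wildtype library left 225 to 246 introns, and leaving out replicate 3 of siRNA #1 or of siRNA #2 alone left 536 and 446.

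New joins had the highest share of calls among the classes of intron. Of 8753 tested, 129 were called (1.47%), 122 higher and 7 lower, and 121 of the 122 enclosed at least 1 annotated exon, as did 92.8% of all new joins tested. Exactly 1 exon was enclosed in 71 of them. Their median difference was 2.54 percentage points, over 119 genes, and the largest was in CUL9, a cullin, where a join on chr6:43188119-43193000 rose from 19.0%, 14.3% and 16% in wildtype to 32.5%, 36.4% and 47.9% with siRNA #1 and 43.4%, 45.1% and 38.4% with siRNA #2 (1.74 ± 0.32 log2 odds, SE, adjusted p = 0.0306). In MYCN+/SNRPD3+ the same join was at 32.8%, and in MYCN-/SNRPD3- at 19.2% and 28.6%. A new join of RRM2, the small subunit of ribonucleotide reductase, was at 4.55%, 0.0655% and 0.0929% in wildtype and at 11.6% to 27.9% (median 19.2%) in MYCN+/SNRPD3- (adjusted p = 0.0156), and a new join of MRPS10, a mitochondrial ribosomal protein, rose from 4.49% ± 0.355 (SD, n = 3) to 17.8% ± 8.16 (SD, n = 6, adjusted p = 0.05). In MRPS10 replicate 3 of both siRNAs, at 28.3% and 28.2%, stood above the other 4 libraries at 12.1% to 13.2%. Annotated introns were called in 679 of 103170 (0.658%, 402 higher and 277 lower), introns with an unannotated 5′ splice site in 79 of 13440 (0.588%, 41 and 38), introns with an unannotated 3′ splice site in 51 of 15149 (0.337%, 34 and 17) and introns with neither site annotated in 36 of 12115 (0.297%, 13 and 23).

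The introns with the largest rises belonged to genes of several functions, and 3 of the 8 skipped a tested cassette exon. Here too the choice was made among called introns whose groups do not overlap. SASH1, a signalling scaffold, had an intron (chr6:148343224-148390133) at 43.1%, 44.1% and 37.5% in wildtype and at 63.2% to 90.8% (median 81.6%) in MYCN+/SNRPD3- (2.49 ± 0.50 log2 odds, SE, adjusted p = 0.0437). PDK2, a kinase that inhibits pyruvate dehydrogenase, had an intron (chr17:50095554-50097422) at 62.4%, 55.6% and 58.3% in wildtype and at 89.9% to 97.9% (median 94.8%) in MYCN+/SNRPD3- (3.40 ± 0.40 log2 odds, SE, adjusted p = 0.0034). In both, MYCN+/SNRPD3+ (77.9% and 94.8%) was close to MYCN+/SNRPD3-, and MYCN-/SNRPD3- was nearer to wildtype (49.7% and 51.4%, and 68.1% and 62.0%). WSB1, a substrate receptor of a ubiquitin ligase, had an intron that rose from 52.8% ± 1.42 (SD, n = 3) to 85.1% ± 4.13 (SD, n = 6, adjusted p = 0.00243), and ZNF160, a zinc finger gene, had one that rose from 45.2% ± 3.15 (SD, n = 3) to 76.3% ± 8.57 (SD, n = 6, adjusted p = 0.0114). The intron that skips the AFDN exon printed above rose from 26.7% ± 4.47 (SD, n = 3) to 56.4% ± 6.13 (SD, n = 6, adjusted p = 0.00162), and that which skips the MED16 exon from 2.42% ± 3.61 (SD, n = 3) to 37.0% ± 20.6 (SD, n = 6, adjusted p = 0.0254). An intron of the pseudogene WHAMMP1, whose reads may be shared with its relatives, rose from 47.6% ± 22.1 (SD, n = 3) to 81.4% ± 3.78 (SD, n = 6, adjusted p = 0.0359).

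ASIC3 and AP5Z1 differed from these in the values of the other groups. ASIC3 encodes an acid-sensing ion channel, and the intron that skips its 148-base exon (chr7:151051096-151051809) was at 37.0%, 45.7% and 43.1% in wildtype, at 74.2%, 79.1% and 82.7% with siRNA #1 and at 87.7%, 57.4% and 68.6% with siRNA #2 (2.10 ± 0.41 log2 odds, SE, adjusted p = 0.0425). Its PSI was 43.9% in MYCN+/SNRPD3+ and 45.6% and 39.3% in MYCN-/SNRPD3-, near wildtype. AP5Z1, of an adaptor complex of late endosomes, had an intron (chr7:4785685-4786249) at 67.1%, 66.2% and 48.6% in wildtype and at 27.1% to 39.6% (median 34.0%) in MYCN+/SNRPD3- (-1.65 ± 0.33 log2 odds, SE, adjusted p = 0.0456). In the other groups it was at 63.0%, 58.4% and 62.1%. The interaction of MYCN and SNRPD3 depletion, tested over all introns, did not pass in either gene (limma unadjusted p = 0.00499 and 0.00252, adjusted p = 1). It passed in 14 introns of all genes and in 0 of the 18560 cassette exon sets in limma. An unadjusted p under 0.05 was reached in 763 of these sets, a share below that threshold.

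Among the largest falls, 4 of the 8 introns used a 5′ splice site outside the annotation, and several rested on wildtype libraries that differed among themselves. TMEM132A, a transmembrane protein, had an annotated intron (chr11:60924734-60927203) at 75.5%, 69.5% and 72.6% in wildtype and at 30.3% to 46.7% (median 32.5%) in MYCN+/SNRPD3- (-2.27 ± 0.36 log2 odds, SE, adjusted p = 0.0168). MYCN+/SNRPD3+ was at 40.2% and MYCN-/SNRPD3- at 64.6% and 73.0%. ZNF614, a zinc finger gene, had an intron that was at 97.0%, 98.3% and 74.2% in wildtype, at 1.35%, 0.764% and 0.397% with siRNA #1 and at 28.6%, 42.6% and 25.1% with siRNA #2 (-7.20 ± 1.22 log2 odds, SE, adjusted p = 0.0234). TAF7, a subunit of TFIID, had an intron at 97.5%, 44.4% and 6.49% in wildtype and at 0.314% to 0.465% in MYCN+/SNRPD3- (adjusted p = 0.0322). An intron of CPB2-AS1 was at 42.5%, 32.5% and 7.94% in wildtype and at 0.105% to 0.276% in MYCN+/SNRPD3- (adjusted p = 0.000508). In MYCN+/SNRPD3+ and in MYCN-/SNRPD3- with siRNA #1 and #2 the means were 0.322%, 0.360% and 0.351% for TAF7 and 0.151%, 0.264% and 0.268% for CPB2-AS1. Wildtype was thus the only group above these levels in both, and its replicate 3 was lowest. Introns of NPAS2, a circadian transcription factor (35.6% ± 7.86, SD, n = 3, to 2.02% ± 3.74, SD, n = 6, adjusted p = 0.0333), and of MYL12-AS1, an antisense gene (63.1% ± 6.90, SD, n = 3, to 18.2% ± 18.9, SD, n = 6, adjusted p = 0.0196), fell too. For MYL12-AS1 the means were 32.0% with siRNA #1 and 4.35% with siRNA #2. They were 0.887% in MYCN+/SNRPD3+ and 52.7% and 0.739% in MYCN-/SNRPD3- with siRNA #1 and #2. Wildtype replicate 1 held the same value as replicate 1 of MYCN-/SNRPD3- with siRNA #1 in MYL12-AS1 (55.7%) and in ZNF614 (97.0%). In NPAS2 the values 0.870% and 0.540% each occurred in both MYCN+/SNRPD3- and MYCN+/SNRPD3+, as did 0.129% in CPB2-AS1. In MYL12-AS1 0.736% occurred in both MYCN+/SNRPD3- and MYCN-/SNRPD3- with siRNA #2. Values this near 0 are smoothed PSI of unknown depth. In NBPF14, of a multigene family whose near-identical copies can share reads, an intron fell from 99.5% ± 0.104 (SD, n = 3) to 63.9% ± 9.90 (SD, n = 6, adjusted p = 0.000206), a value that is uncertain for that reason.

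Of the 50 introns named from the gene lists, 28 belonged to a tested cassette exon, 25 as the intron that skips it and 3 as a flanking intron. The exon was called as skipped more in 27 of these 28, the exception being UBA1. The other 22 belonged to no tested cassette exon. Among them, SKP2, an F-box protein that drives entry into S phase, had an intron at 27.7%, 25.4% and 23.1% in wildtype, at 44.1%, 41.2% and 49.7% with siRNA #1 and at 43.8%, 45.1% and 49.98% with siRNA #2 (1.27 ± 0.15 log2 odds, SE, adjusted p = 0.00375). MYCN+/SNRPD3+ was at 31.8% and MYCN-/SNRPD3- at 35.0% and 44.3%, so siRNA #2 with MYCN repressed came to the level of MYCN+/SNRPD3-. CHEK1, the checkpoint kinase, had an intron that rose from 52.0% ± 7.31 (SD, n = 3) to 72.8% ± 4.92 (SD, n = 6, adjusted p = 0.0243). TAF15, an RNA-binding protein of the FET family, had an intron that fell from 58.3% ± 7.62 (SD, n = 3) to 40.5% ± 3.02 (SD, n = 6, adjusted p = 0.0295), PCBP2, a poly(C)-binding protein, one that rose from 27.6% ± 1.55 (SD, n = 3) to 37.7% ± 0.735 (SD, n = 6, adjusted p = 0.0235), and HNRNPH1, which binds G-rich RNA, one that rose from 9.65% ± 1.13 (SD, n = 3) to 19.4% ± 4.16 (SD, n = 6, adjusted p = 0.0434). TAF15, PCBP2 and HNRNPH1 are in the hnRNP list. In that list 0 genes had a called intron without replicate 3 of both siRNAs, and 1 had one with only the 9 libraries. In SF3B1, a subunit of the U2 particle, an intron rose from 95.2% ± 0.380 (SD, n = 3) to 98.4% ± 0.631 (SD, n = 6, adjusted p = 0.0414).

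A further set of list introns had values in MYCN+/SNRPD3+ near those in MYCN+/SNRPD3-. UBA1, the ubiquitin-activating enzyme, had an intron (chrX:47194025-47198802) at 55.1%, 50.8% and 49.3% in wildtype and at 23.3% to 37.7% (median 28.7%) in MYCN+/SNRPD3- (-1.37 ± 0.21 log2 odds, SE, adjusted p = 0.0141), and at 29.3% in MYCN+/SNRPD3+ against 52.0% and 53.2% in MYCN-/SNRPD3-. EPB41, a membrane skeleton protein, had an intron that fell from 66.0% ± 7.0 (SD, n = 3) to 39.7% ± 7.73 (SD, n = 6, adjusted p = 0.0452), with 38.8% in MYCN+/SNRPD3+ and 68.7% and 67.8% in MYCN-/SNRPD3-. DDX10, an RNA helicase of ribosome production, had one that fell from 9.55% ± 1.45 (SD, n = 3) to 1.64% ± 0.815 (SD, n = 6, adjusted p = 0.0229), with 1.31% in MYCN+/SNRPD3+ and 7.37% and 7.19% in MYCN-/SNRPD3-. In the RNA helicase list 0 genes had a called intron without replicate 3 of both siRNAs, and 0 with only the 9 libraries. PDK2, RPS24, UBA1, EPB41 and DDX10 share the wildtype libraries with MYCN+/SNRPD3+ as well as with MYCN+/SNRPD3-, so their values are given side by side without a test across comparisons. Of 18560 cassette exon sets, 6 were called in MYCN+/SNRPD3+ against wildtype and 9 in MYCN+/SNRPD3- against MYCN+/SNRPD3+. In MYCN-/SNRPD3- against wildtype 0 were called. There 1185 sets had an unadjusted p under 0.05 in limma, a share slightly above that threshold.

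The 966 exons that were skipped more had features that the calls did not use. Their median length was 102 bases, against 113 in all exons tested, and 48.4% were a multiple of 3 bases long, against 43.0%. Coding exons, as defined above, made up 71.9% of them and 55.7% of all. The median upstream intron was 1919.5 bases against 2345.0 and the median downstream intron 1784.0 against 2268.5. The consensus match of the 5′ splice site (median 6 of 9 positions), the share of pyrimidines in the 20 intron bases before the exon (median 70%) and the exon GC content (48.9% against 48.8%) were alike at the median. By consensus match, 5.75% of exons with 0 to 5 matching positions were called as skipped more, 6.40% with 6, 5.77% with 7, 3.72% with 8 and 1.05% with all 9, where 1 of 95 was called. By inclusion in the 9 libraries outside the comparison, 2.23% of exons included at under 20% were called as skipped more, 6.47% at 20% to 50%, 7.40% at 50% to 80%, 8.88% at 80% to 95% and 5.76% above 95%. These are descriptions with no test, since exons of a gene share its libraries and exons at the ends of the scale have less room to move.

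BIRC5 (survivin) and CDK10 are singled out by the study, BIRC5 for a cassette exon and CDK10 for a retained intron. The study found both events from read counts with rMATS, at its own thresholds. By RT-qPCR it also reported less BIRC5 exon 3 and more of the CDK10 intron. The values here are leafcutter PSI under another test and threshold, so they do not repeat those measurements. Exon 3 of the canonical BIRC5 transcript, a 118-base cassette exon (chr17:78216664-78216781), was included at 90.9%, 89.8% and 93.5% in wildtype, at 90.5%, 88.9% and 80.5% with siRNA #1 and at 90.2%, 92.3% and 86.9% with siRNA #2. The groups overlapped, replicate 3 of each siRNA was lowest, and the exon was not called (-0.43 ± 0.26 log2 odds, SE, adjusted p = 0.357). Among all tested sets of the gene the lowest p belonged to a 165-base exon (chr17:78222828-78222992), which had an inclusion of 1.76% ± 0.12 (SD, n = 3) without and of 1.31% ± 0.192 (SD, n = 6) with both changes (-0.26 ± 0.13 log2 odds, SE, adjusted p = 0.26). In CDK10 the lowest p of a cassette exon belonged to a 73-base exon (chr16:89689252-89689324), at 97.1% ± 1.56 (SD, n = 3) and 93.2% ± 2.02 (SD, n = 6, -1.09 ± 0.40 log2 odds, SE, adjusted p = 0.125). No intron of either gene was called, with the lowest adjusted p at 0.361 in BIRC5 and 0.115 in CDK10. A retained intron leaves no spanning read, so retention in CDK10 was not tested here.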

How the data were processed

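RNA libraries of the 18 samples were aligned by the authors to hg38 with STAR 2.5.0a and handled with SAMtools 1.3.1 (per the labels), and leafcutter gave each intron a PSI per library. The authors' deposited PSI values are fractions of a cluster, and since none equals 0 or 1 they had been smoothed. The authors' deposited comparisons (FDR and delta PSI) were not used. The libraries of a group are independent biological replicates per the study. Introns and exons were placed on GENCODE release 44, a later release than the authors', and reads of near-identical genes cannot be told apart.

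The log2 odds of PSI, with 0.01 added to both terms, were fitted with limma 3.58.1 (R 4.3.3) in all 18 libraries with 6 group means. The contrast was the mean of both MYCN+/SNRPD3- groups minus wildtype. Benjamini-Hochberg adjustment ran over all introns or all exon sets, with a threshold of 0.05. Exon sets were transformed and fitted in the same way on inclusion. The procedure was tested on simulated data. Per-library measures were compared by exact permutation tests, two-sided (Python 3.11.15, scipy 1.17.1).

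Named introns are the 8 largest rises and the 8 largest falls, 1 per gene, among those called with 9 different values, no overlap of groups and an annotated splice site. Named exons are the 8 largest differences under the same conditions. Named as well are at most 3 called genes of each of 20 gene lists, and BIRC5 and CDK10. The comparison, its members and the lists were chosen with earlier results of these data known. The alternatives covered the offset, the scale, the PSI filter, the libraries fitted, a replicate block, eBayes options, thresholds, repeated values, single siRNAs and leaving out each library. Leaving out replicate 3 of both siRNAs and centring library medians were added after the data were seen.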

Additional observations from a re-analysis of the deposited data

Results flagged for a closer look

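Among 83 results tested for a MYCN+/SNRPD3- library far from the other 5, 6 had a gap above Dixon's 95% limit, where chance gives about 1 in 20. The gap as a share of the range was 0.8797 for the PSI share of introns with a new 3′ splice site, where 1 library with siRNA #1 was at 2.40% and the median was 2.54%. It was 0.6542 for TMEM132A, where replicate 3 of siRNA #2 was at 46.7% against a median of 32.5%, and 0.9385 for NPAS2, where replicate 1 of siRNA #1 was at 9.63% against a median of 0.476%. Replicate 3 of siRNA #1 was the highest library in the other 3, with 0.6353 for LUC7L3 (95.3%, median 91.0%), 0.6739 for MCM8 (8.71%, median 3.43%) and 0.7382 for ARFIP1 (62.7%, median 52.3%).

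For the CPB2-AS1 intron the interaction test of MYCN and SNRPD3 depletion passed in limma (adjusted p = 0.04301). PSI was 27.6% in wildtype and between 0.151% and 0.268% at the mean of MYCN+/SNRPD3+ and of both MYCN-/SNRPD3- groups, and 0.168% in MYCN+/SNRPD3-. MYCN+/SNRPD3+ was already at 0.151%, so depletion had almost no room to lower PSI there. The test therefore cannot tell whether the effect of depletion depended on MYCN.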

How the results depend on the processing

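No depth was given, so no limit by depth could be set. The main counts were 974 introns, 1061 exon sets and 737 genes with a called intron. The counts of introns and genes were 577 and 417 on the raw PSI scale, 612 and 466 with a mean PSI from 5% to 95%, 522 and 406 with the trend and robust options and 510 and 390 with a difference of at least 5 percentage points. Introns, exon sets and genes numbered 427, 32 and 317 with only the 9 libraries and 3 group means, 484, 84 and 365 with 2 group means, 121, 83 and 89 at an adjusted p under 0.01, 464, 703 and 365 with siRNA #1 alone, 210, 178 and 156 with siRNA #2 alone, and 374, 238 and 291 without replicate 3 of both siRNAs. With centred library medians 308 exon sets were called. Leaving out each library in turn gave 225 to 916 introns, 212 to 1189 exon sets and 175 to 700 genes, with the lowest counts when a wildtype library was left out, which leaves 2. Of calls of introns 62.8% were higher, against 49.9% on the raw scale, 55.4% at an adjusted p under 0.01, 43.6% and 43.4% with the 9 libraries and 67.0% with the block. The other settings kept each count within 1.5 times, with 698 to 1289 introns and 760 to 1216 exon sets, and 1455 exon sets with the block. The cause of these changes was not tested, other than that fewer libraries, fewer introns or a stricter threshold were used where the setting says so.

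The difference in entropy changed sign, from -0.00078, to 0.00212 with 9 different values and 0.00572 with siRNA #2 alone, and ranged from -0.0080 to 0.00392 when each library was left out. The share on new 3′ splice sites differed by 0.0977 percentage points and no longer passed without a PSI filter (0.0803), with 9 different values (0.0909), with siRNA #1 (0.0728) or siRNA #2 alone (0.123), with the replicate block (0.0977), or when any 1 library other than replicate 3 of siRNA #1 was left out. Leaving out each library gave 0.0867 to 0.122, and 0.122, without that library, passed (exact permutation p = 0.0179). With 3 libraries against 3 no p under 0.1 is possible, so with siRNA #1 and #2 alone the difference in new joins (0.216 and 0.217 points) and in inclusion (-3.02 and -2.40 points for lengths of a multiple of 3, -2.76 and -2.02 for others) could not pass. Leaving out each library gave -2.94 to -2.31 and -2.64 to -1.98 points of inclusion, which did not pass without any 1 wildtype library (exact permutation p = 0.0714).

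The replicate numbers came from the labels. Over all tested introns, deviations of libraries with the same number were not correlated (9 pairs, correlations from -0.0346 to 0.0325), so they were not treated as pairs. In mean inclusion, replicate 3 was all the same the lowest with both siRNAs. Whether libraries of the same number shared a batch was not tested. With the replicate number as a block 1513 introns, 1455 exon sets and 1115 genes were called, and CDK10's exon passed (adjusted p = 0.0137). Over the 77 named introns and exons, 1112 of 1846 values under an alternative kept their side of the threshold and their direction, 732 kept their direction but no longer passed, and 1 newly passed. The 165-base BIRC5 exon, which was not called, reversed with centred medians, from -0.448 to 0.272 percentage points. In the fit of the 9 libraries 61 of the 77 did not keep their call.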
